A study of Macaca radiata with 4 samples.

Results

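Interferon-stimulated genes were examined in the corpus luteum of the bonnet monkey (Macaca radiata), the gland that forms from the ovulated follicle and secretes progesterone under the drive of luteinising hormone (LH). They were taken as every gene whose symbol in the array's annotation belonged to a fixed set of families (IFI, IFIT, IFITM, ISG, MX, OAS, HERC5 and HERC6, IRF, STAT2, GBP, DDX60, SAMD9, some PARP, TRIM and SP100 family genes, and single genes such as BST2, XAF1 and CMPK2). This gave 55 genes of 14132 with a symbol of their own on the array. Each gene was represented by its probe set with the highest mean log2(signal + 16) over all 4 arrays, so the level, but not the difference between groups, chose the probe set. A probe set entered the comparisons when that mean exceeded the 40th percentile of all probe sets, a signal of 90.7, and 48 of the 55 genes passed, against 10998 genes in all. IFIT1B lay just inside, at a geometric mean signal of 137, and SP140 just outside, at 87.4. Some members, such as IRF3, have known roles upstream of interferon and are members by their family name.

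The samples were 4 corpora lutea, each hybridised to an Affymetrix array designed for the rhesus macaque, a related species. On luteal day 7 all the females, controls included, were treated with CET (150 µg/kg), which per the labels inhibits the animal's own LH secretion. The PBS group (replicates 1 and 2) then received the vehicle and the rhLH group (replicates 3 and 4) received 20 IU/kg of rhLH, both intravenously at 24 h, and the gland was taken 8 h later. The labels give 2 monkeys per group but tie no array to an animal, so the p-values measure the spread between these arrays, which may be technical.

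Interferons are secreted proteins that cells release when they sense viral or misplaced nucleic acid, and that lymphocytes and natural killer cells also make. Type I interferons act through receptor-bound kinases such as TYK2 on a transcription factor complex that includes STAT2 and IRF9 and switches on a large set of antiviral genes, whereas interferon gamma signals through JAK2 and induces IRF1. Many members keep a low basal level in healthy tissue, and in primates the corpus luteum holds resident leukocytes whose number is known to rise as the gland regresses.

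PBS replicate 1 stood apart from the other arrays. Its Pearson correlation with them, across all kept probe sets, was 0.752 to 0.780, whereas the highest correlation of each other array was 0.947. Its ratio of the 3′ to the 5′ actin control probe set, a measure of RNA integrity and labelling, was 11.2, against 1.49 to 1.59 on the other 3 arrays. Signals below are always given in the order PBS replicates 1 and 2, then rhLH replicates 3 and 4, and folds are of signal + 16. The luteal label was borne out by steroidogenic genes: the cholesterol carrier gene STAR stood at 24283 and 54566 on PBS replicates 1 and 2 and at 52570 and 51660 on rhLH replicates 3 and 4. The LH receptor gene and CYP11A1 were not matched and were not analysed here.

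No interferon-stimulated gene passed the test between rhLH and PBS, and the 2 rhLH arrays lay far apart for many of them. The median signal of the 48 genes was 699 on PBS replicate 1, 755 on PBS replicate 2, 1893 on rhLH replicate 3 and 634 on rhLH replicate 4. rhLH replicate 3 thus stood above the other 3 arrays, which lay close together. The median log2 difference between rhLH and PBS was 0.41 over the 48 genes and 0.02 over all 10998, and 39 of the 48 differences were positive, where 51.4% of all genes were. Without rhLH replicate 3 the median of the 48 was −0.12, and without rhLH replicate 4 it was 0.87. It was 0.63 with arrays centred on their medians, where that of all genes was 0.25, and 0.63 with a filter at the 70th percentile. In limma's moderated test, 0 of the 48 had an adjusted p under 0.05 and the smallest was 0.919, over a background of 0.0% called among 31659 probe sets (0 called). At an unadjusted p under 0.05, 1 of the 48 was found, against 2.02% of probe sets. Without PBS replicate 2, which leaves PBS replicate 1 as the sole control, the median log2 difference of the 48 was 0.50.

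**Figure D1:**
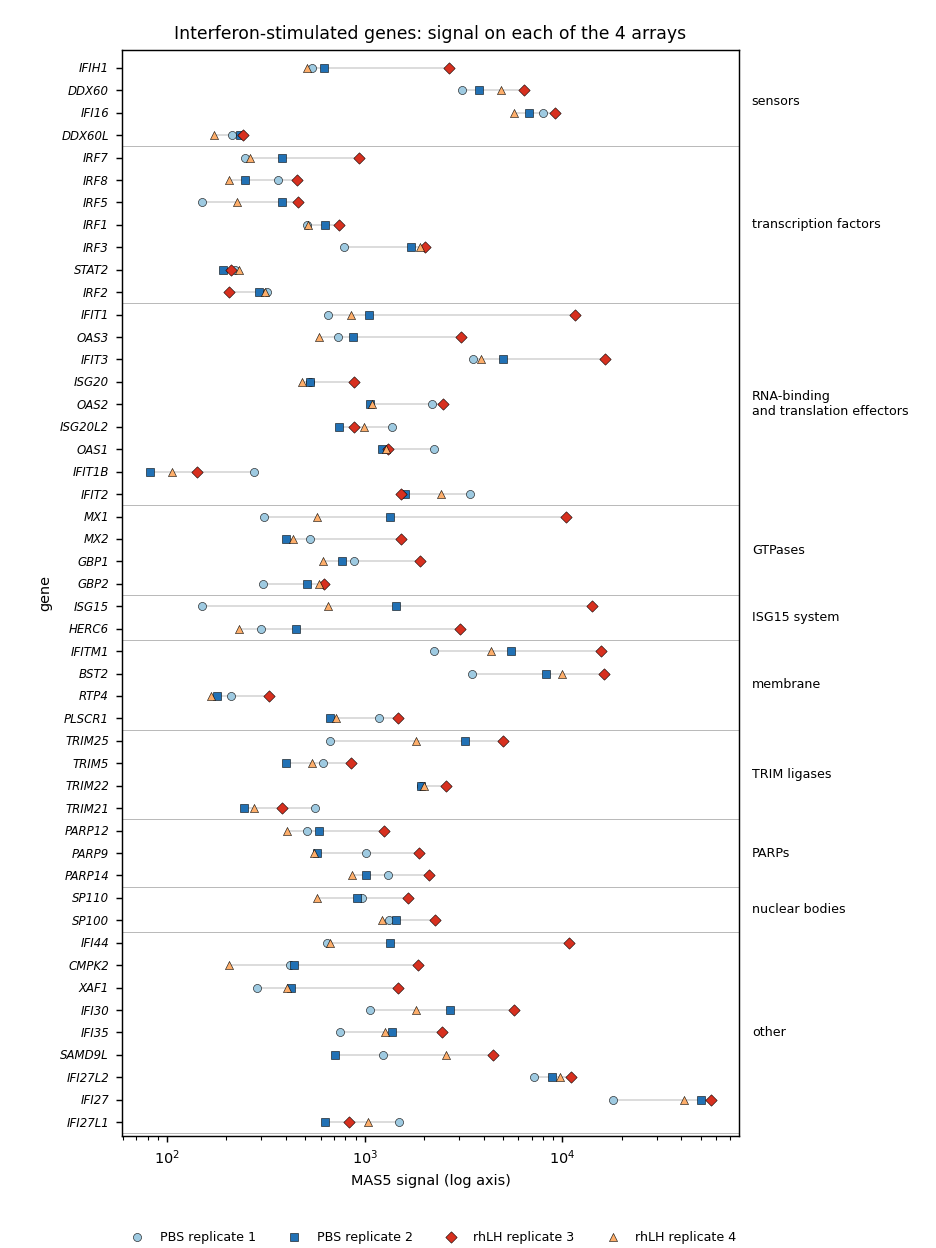
MAS5 signal (horizontal log axis) of each of the 48 interferon-stimulated genes on each array, 1 symbol per array, ordered by role and, within a role, by how far rhLH replicate 3 lay above the other 3 arrays. rhLH replicate 3 (red diamonds) was the highest array for 40 of the 48 genes, while rhLH replicate 4 (orange triangles) lay among or below the PBS arrays for most.

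The difference between the 2 rhLH arrays was the main feature of these genes, and was noticed in these data, not set out beforehand. rhLH replicate 3 was the highest of the 4 arrays for 40 of the 48 genes (83.3%), against 22.8% of all genes, and at least 2-fold above each of the other 3 for 16 (33.3%), against 0.618% of all genes. At a 4-fold margin it held 7 of the 48 (14.6%), and these were 7 of the 11 such genes on the array (0.1%). No other array was 2-fold above the rest for any of the 48. Over all genes the shares at this margin were 8.49% for PBS replicate 1, 0.309% for PBS replicate 2 and 0.0636% for rhLH replicate 4, and at the 4-fold margin 0.864%, 0.0182% and 0.0%. The median difference between rhLH replicates 3 and 4 was 0.96 on the log2 scale, with a range of −0.66 to 4.39, against 0.01 over all genes. Of the 48, 23 were at least 2-fold higher on rhLH replicate 3 than on rhLH replicate 4 (3.4% of all genes) and 0 were 2-fold lower (3.08% of all genes). With 1 array on each side, this difference has no replicate check. Without PBS replicate 1, rhLH replicate 3 was the highest of the remaining arrays for 43 of the 48, against 35.4% of all genes.

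**Figure D2:**
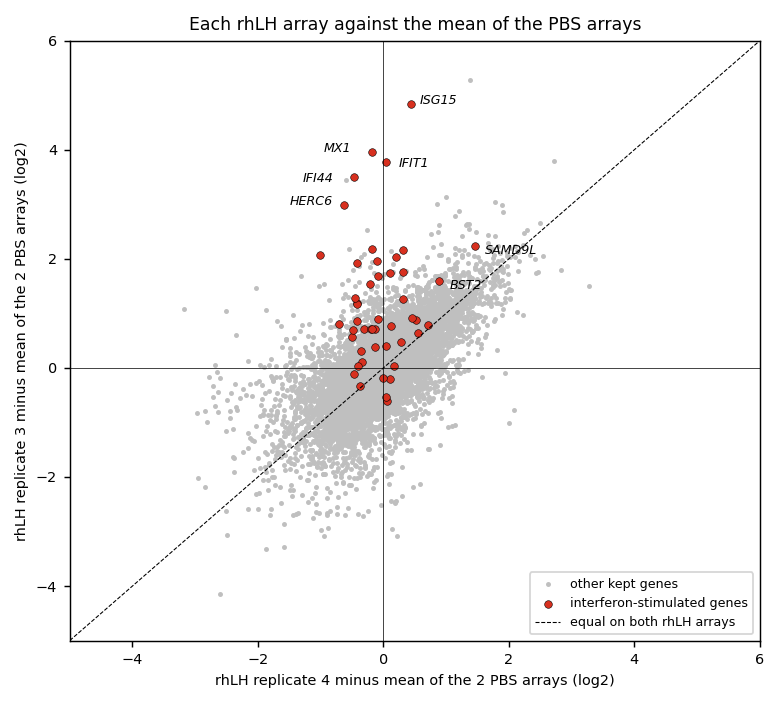
Difference of rhLH replicate 4 (horizontal) and of rhLH replicate 3 (vertical) from the mean of the 2 PBS arrays, in log2, for the 48 interferon-stimulated genes (red) and all other kept genes (grey); the dashed line marks equal differences. ISG15, IFIT1, MX1, IFI44 and HERC6 lay far above the line, near 0 or below on the horizontal axis, while SAMD9L and BST2 lay to the right of 0 on both rhLH arrays.

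rhLH replicate 4 did not stand with rhLH replicate 3. Its median difference over the 48 genes was −0.18 from PBS replicate 2 and −0.10 from PBS replicate 1, and that of rhLH replicate 3 was 0.84 and 1.01. It exceeded PBS replicate 2 for 19 of the 48 (49.4% of all genes), by at least 2-fold for SAMD9L alone (2.08%, against 3.11%), and it lay at least 2-fold below for 3 (6.25%, against 3.08%). The lowest array was PBS replicate 1 for 19 (39.8% of all genes), rhLH replicate 4 for 15 (17.2%), PBS replicate 2 for 12 (22.0%) and rhLH replicate 3 for 2 (21.0%). For the 16 genes at least 2-fold highest on rhLH replicate 3, rhLH replicate 4 lay above both PBS arrays for 0, between them for 10 and below both for 6. The choice of these 16 required rhLH replicate 4 to lie at least 2-fold below rhLH replicate 3. This favours a low rhLH replicate 4, so the split is no separate support. The PBS arrays also differed, by a median of 0.13 over the 48 genes and by up to 3.14 for ISG15. PBS replicate 2 was at least 2-fold above PBS replicate 1 for 10 of the 48 (16.9% of all genes) and PBS replicate 1 above PBS replicate 2 for 5 (15.3%). On the brightest probe sets of ISG15, MX1, IFIT1 and IFI44 the order from high to low was rhLH replicate 3, PBS replicate 2, rhLH replicate 4, PBS replicate 1. A further probe set of IFI44 gave another order, with PBS replicate 1 in second place.

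**Figure D3:**
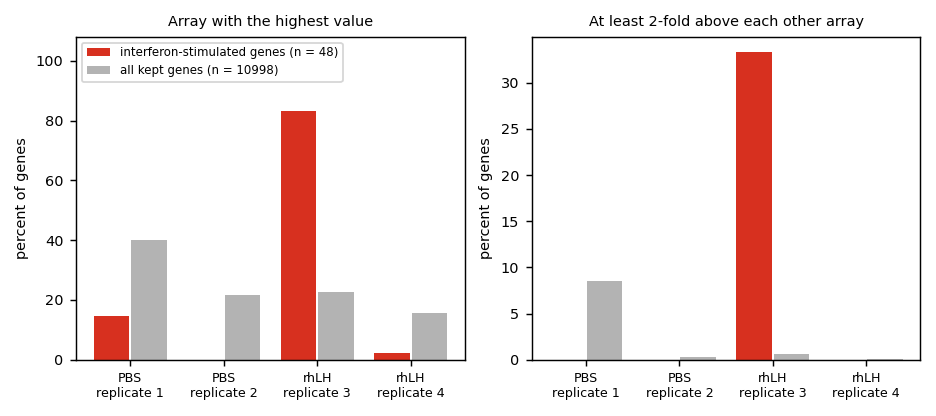
Percent of the 48 interferon-stimulated genes (red bars) and of all 10998 kept genes (grey bars) for which each array held the highest value (left) or lay at least 2-fold above each of the other 3 (right). The red bars stand at 83.3% and 33.3% for rhLH replicate 3, and the grey bars at 22.8% and 0.618%.

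Of the cytosolic and nuclear sensors of foreign nucleic acid, the 4 inside the family rule were highest on rhLH replicate 3, by unequal margins. IFIH1, which encodes the double-stranded RNA sensor MDA5, had 540 and 625 on PBS and 2679 and 511 on rhLH. The 3 lower arrays lay within a narrow band and rhLH replicate 3 was 4.21-fold above the next (log2 difference between groups 1.00, SE 0.76, limma adjusted p = 0.919). RIGI, the newer symbol of the RNA sensor gene DDX58 and therefore outside the family rule, followed the same course, with 156 and 210 on PBS and 1130 and 149 on rhLH. DDX60, a helicase linked to that sensor, had 3125 and 3784 on PBS and 6365 and 4911 on rhLH. Its groups did not overlap, but its further probe set gave 444 and 229 on PBS and 1228 and 139 on rhLH, with rhLH replicate 4 lowest. IFI16, a nuclear DNA sensor, differed little, with 8022 and 6770 on PBS and 9177 and 5722 on rhLH (log2 difference −0.02, SE 0.37), and turned to 0.20 when arrays were centred on their medians. Outside the family rule, the sensor genes DHX58, AIM2 and ZBP1 did not follow RIGI. DHX58 had 1885 and 2156 on PBS and 1450 and 2023 on rhLH. AIM2 had 8391 and 8493 on PBS and 6823 and 8908 on rhLH, so both were lowest on rhLH replicate 3. ZBP1 had 64.8 and 145.5 on PBS and 119.9 and 81.6 on rhLH.

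Among the transcription factors, 7 of 8 genes were measured, and only IRF7 was at least 2-fold highest on rhLH replicate 3. IRF7, a factor that amplifies the type I response and is itself interferon-induced, had 250 and 382 on PBS and 933 and 264 on rhLH on its brightest probe set. Its further probe set did not show this, with 204 and 226 on PBS and 357 and 403 on rhLH, so the probe sets of IRF7 disagreed. IRF1, the main early target of interferon gamma, had 511 and 628 on PBS and 745 and 516 on rhLH, within 1.43-fold between the rhLH arrays. STAT2, a subunit of the factor that type I interferon activates, had 220 and 192 on PBS and 212 and 233 on rhLH, and it was the only one of the 48 genes with rhLH replicate 4 highest. IRF3, which is constitutive and acts upstream of interferon, had 789 and 1712 on PBS and 2015 and 1908 on rhLH. The rhLH arrays differed by 1.06-fold, the PBS arrays by 2.15-fold.

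The effectors that bind RNA or stop translation held the largest margin of all 48 genes. IFIT1, which binds viral RNA that lacks the host cap methylation, had 651 and 1057 on PBS and 11594 and 855 on rhLH. rhLH replicate 3 was thus 10.8-fold above the next array, whereas rhLH replicate 4 lay between the PBS arrays. The group means of IFIT1 were 854 ± 287 (SD, n = 2) for PBS and 6225 ± 7594 (SD, n = 2) for rhLH, a log2 difference of 1.91 with an SE of 1.15 (limma adjusted p = 0.919). IFIT3, a partner of IFIT1, had 3516 and 5004 on PBS and 16422 and 3889 on rhLH, and its 2 further probe sets gave 3.65-fold and 4.38-fold between the rhLH arrays against 4.21-fold for the first. OAS3, an oligoadenylate synthetase that triggers RNA decay, had 730 and 873 on PBS and 3084 and 591 on rhLH. A second probe set of OAS3 gave 3.50-fold between the rhLH arrays, but the third gave 0.95-fold.

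Not all genes of these families followed. OAS1, from the same family as OAS3, had 2254 and 1221 on PBS and 1319 and 1277 on rhLH. The 2 rhLH arrays were within 1.03-fold, and PBS replicate 1 was the highest. Of its 4 further probe sets, 3 stood at 1.03-fold to 1.09-fold between the rhLH arrays and 1 at 2.15-fold. IFIT2, which acts with IFIT1 and IFIT3, had 3414 and 1597 on PBS and 1528 and 2432 on rhLH on its brightest probe set, the lowest value being on rhLH replicate 3. Its further probe sets split: 4 lay 2.14-fold to 8.81-fold higher on rhLH replicate 3 than on rhLH replicate 4, the last of them below the filter level, and 1 lay at 0.60-fold. In all, 8 of the 48 genes were not highest on rhLH replicate 3. PBS replicate 1 was the highest for 7 of them (IFIT1B, IFIT2, ISG20L2, OAS1, TRIM21, IFI27L1 and IRF2), against 39.9% of all genes, and rhLH replicate 4 for STAT2 (15.7% of all genes). PBS replicate 2 was the highest for 0 of the 48, against 21.5% of all genes.

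Interferon-induced GTPases assemble on viral capsids or on the membranes of intracellular microbes. The 4 that passed the filter were highest on rhLH replicate 3, and GBP6 and GBP7 were below the filter level. MX1 had 311 and 1350 on PBS and 10390 and 575 on rhLH, a 17.6-fold difference between the rhLH arrays and a 4.18-fold one between the PBS arrays. MX2 had 531 and 402 on PBS and 1519 and 434 on rhLH, and its further probe set, too, was far higher on rhLH replicate 3 (1494) than on PBS (200 and 175). The probe sets placed rhLH replicate 3 above the next array by 2.80-fold and 7.00-fold. GBP1, a guanylate-binding protein that interferon gamma induces, had 888 and 771 on PBS and 1912 and 614 on rhLH, and its further 3 kept probe sets lay 2.17-fold to 3.69-fold above the next array. GBP2 had 305 and 513 on PBS and 623 and 589 on rhLH on its brightest probe set, with the 2 rhLH arrays within 1.06-fold. Its further probe sets did not share this: they were 2.19-fold and 2.87-fold higher on rhLH replicate 3 than on rhLH replicate 4.

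ISG15 encodes a ubiquitin-like protein that is joined to other proteins or secreted, and it spanned the widest range of the 48. Its signals were 150 and 1447 on PBS and 14059 and 654 on rhLH. rhLH replicate 3 exceeded rhLH replicate 4 by 21.0-fold, and PBS replicate 2 exceeded PBS replicate 1 by 8.80-fold, so that both groups were spread. The log2 difference between groups was 2.64 with an SE of 1.61 (limma adjusted p = 0.919), the largest difference among the 48 and the one with the largest SE. HERC6, a ligase of the family that attaches ISG15, had 300 and 450 on PBS and 3034 and 233 on rhLH. Here rhLH replicate 4 was the lowest array, and the log2 difference of 1.18 between groups became −0.63 without rhLH replicate 3. USP18, which removes ISG15, shared its probe set with another gene symbol and was left out.

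All 4 measured genes of membrane-associated proteins, BST2, IFITM1, PLSCR1 and RTP4, were highest on rhLH replicate 3. IFITM1, which hinders fusion of viruses with the cell membrane, had 2232 and 5467 on PBS and 15612 and 4356 on rhLH, 3.57-fold between the rhLH arrays. Its further probe set gave 4.18-fold. The brightest probe set is marked as matching several transcripts, which the further one is not, and the IFITM genes are closely alike, so its signal may include other members of the family. BST2, or tetherin, which holds budding virus at the cell surface, had 3499 and 8305 on PBS and 16237 and 9964 on rhLH. Both rhLH arrays lay above both PBS arrays, by 2.36-fold on average (log2 difference 1.24, SE 0.52, limma adjusted p = 0.919), and the further probe set gave 1.39. The gap from rhLH replicate 4 to PBS replicate 2 was 1.20-fold.

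Of the 9 measured TRIM ligase, PARP and nuclear body genes, 8 were highest on rhLH replicate 3, and PARP12 was the one to reach the 2-fold margin. TRIM25, which ubiquitinates the RNA sensor RIG-I, had 668 and 3219 on PBS and 5018 and 1826 on rhLH, with the PBS arrays 4.73-fold apart. TRIM22, an antiviral ligase, had 1937 and 1923 on PBS and 2565 and 1990 on rhLH, so rhLH replicate 4 was barely above PBS. PARP12, an antiviral ADP-ribosyltransferase, had 511 and 588 on PBS and 1251 and 404 on rhLH, and PARP14, which modifies STAT signalling, had 1319 and 1013 on PBS and 2109 and 862 on rhLH. For both PARP genes rhLH replicate 3 was highest and rhLH replicate 4 lowest. SP100, a scaffold of nuclear bodies, had 1323 and 1445 on PBS and 2273 and 1219 on rhLH.

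The remaining members included 4 genes at least 2-fold highest on rhLH replicate 3. IFI44, an interferon-induced protein of uncertain function, had 646 and 1345 on PBS and 10765 and 668 on rhLH. CMPK2, a mitochondrial nucleotide kinase, had 418 and 441 on PBS and 1852 and 206 on rhLH, and XAF1, a pro-apoptotic factor, had 286 and 423 on PBS and 1474 and 404 on rhLH. On the brightest probe set of each, rhLH replicate 3 alone stood out, by 7.92-fold, 4.09-fold and 3.39-fold over the next array. The further kept probe set of IFI44 had 1286 and 306 on PBS and 2607 and 258 on rhLH. There PBS replicate 1 came next, and the margin of rhLH replicate 3 was 2.0-fold. IFI30, a lysosomal thiol reductase of antigen processing, had 1061 and 2709 on PBS and 5695 and 1823 on rhLH, a margin of 2.10-fold. IFI27, a mitochondrial protein whose transcript is strongly interferon-responsive, had 17987 and 49970 on PBS and 56665 and 41121 on rhLH. Its rhLH arrays straddled PBS replicate 2, and the low PBS replicate 1 made up the log2 difference of 0.69.

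SAMD9L, a restriction factor for poxviruses that also limits cell growth, was the one gene of the 48 whose rhLH arrays both lay at least 1.5-fold above both PBS arrays. It had 1236 and 708 on PBS and 4450 and 2593 on rhLH. The group means were 972 ± 373 (SD, n = 2) and 3521 ± 1313 (SD, n = 2), a 3.58-fold difference (log2 1.84, SE 0.44), and it was the single member with an unadjusted p under 0.05 in the limma test (adjusted p = 0.919). Its further kept probe set, at a much lower signal, also placed both rhLH arrays above both PBS arrays (118 and 188 against 298 and 247). The 1.5-fold margin was met by 1.16% of all genes, so 1 of 48 (2.08%) was near the background. In all, 7 of the 48 (14.6%) had both rhLH arrays above both PBS arrays, against 16.3% of all genes: SAMD9L, BST2, DDX60, IRF3, GBP2, TRIM22 and IFI27L2. None had both below, against 16.1% of all genes, nor at least 1.5-fold below, against 1.45%. With 1 array left out, fewer arrays had to be ordered and the background shares were larger. Without PBS replicate 1, 17 of the 48 lay above (34.7% of all genes did) and 0 below (34.1%). Without PBS replicate 2, 21 lay above (43.5%) and 7 below (43.5%). Without rhLH replicate 3, 8 lay above (25.4%) and 15 below (26.4%). Without rhLH replicate 4, 40 lay above (29.4%) and 2 below (27.8%), so the share of the 48 above PBS, 83.3%, stood far over the background in this last case and not in the others. This last count asks only whether rhLH replicate 3 lay above both PBS arrays. It therefore largely restates that rhLH replicate 3 was the highest array for most of the 48. IFI27L2, a relative of IFI27, had 7186 and 8875 on PBS and 11119 and 9702 on rhLH.

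Further probe sets of the same genes gave a further reading. They were not chosen by being the brightest of their gene. They were still selected on level, by the same filter on the mean over all 4 arrays, which includes rhLH replicate 3. Below this filter, the further probe sets of PARP9, TRIM22, SP110 and SAMD9L were not highest on rhLH replicate 3. That of IFIT2 was, and those of GBP1 split. Of 48 further kept probe sets of these genes, 32 (66.7%) had rhLH replicate 3 highest, against 20.1% of 7156 further probe sets of all genes. rhLH replicate 3 was at least 2-fold above each other array for 14 of them (29.2%), against 0.601%, and at least 2-fold above rhLH replicate 4 for 23 (47.9%), against 3.59%. Among the 16 genes at least 2-fold highest on rhLH replicate 3, 8 had further kept probe sets, and 10 of these 12 probe sets gave the same result. Probe sets of a gene are read from the same RNA on the same array, so they check the probe and not the animal.

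**Figure D4:**
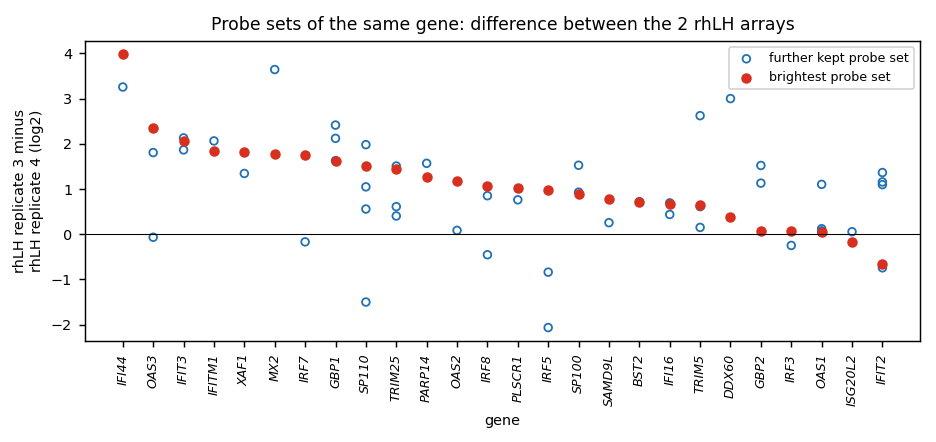
Difference between rhLH replicates 3 and 4 in log2 for each kept probe set of the genes with more than 1, with the brightest probe set in red and the further ones as open circles. Probe sets agreed for IFIT3, IFITM1 and GBP1, and spread on both sides of 0 for IFIT2, IRF5, SP110 and IRF7.

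Other genes of the interferon pathway lay between the stimulated genes and the background. Of 80 further pathway genes listed, 45 were measured, 0 passed the limma test, and 18 (40%) were highest on rhLH replicate 3, against 22.8% of all genes. At least 2-fold there was 1 (2.22%), against 0.618%. Their median difference between rhLH replicates 3 and 4 was 0.20. Of the interferon genes themselves, IFNB1, IFNG and IFNK were below the filter level and IFNL1, a type III interferon, had 328 and 41.9 on PBS and 88.0 and 146 on rhLH, so the 1 measured ligand was not highest on rhLH replicate 3. Of the receptor and kinase genes, 0 of 4 were highest there. JAK2, the kinase of the interferon gamma receptor, had 741 and 1494 on PBS and 520 and 640 on rhLH, with both rhLH arrays below both PBS arrays. The difference between pathway genes and stimulated genes was not tested.

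Most of the pathway genes highest on rhLH replicate 3 were targets outside the family rule: 7 of 12 antigen presentation genes, 3 of 4 chemokines and 4 of 5 other targets, but 3 of 14 inducers and 1 of 5 inhibitors. Over all genes 22.8% were highest there, so the inducers (21.4%) and inhibitors (20.0%) stood near that share. This split depends on how genes were assigned to the lists. DHX58, AIM2 and ZBP1 were listed as inducers and were not highest on rhLH replicate 3. IDO1, the tryptophan-degrading enzyme that interferon gamma induces, had 315 and 322 on PBS and 800 and 349 on rhLH, and it was the 1 pathway gene at least 2-fold highest on rhLH replicate 3. CXCL11, an interferon-induced chemokine, had 393 and 1339 on PBS and 2041 and 1067 on rhLH, whereas CXCL10, a close relative and the 1 chemokine not highest there, had 409 and 137 on PBS and 187 and 78.9 on rhLH. B2M, the light chain of class I molecules, had 27098 and 49228 on PBS and 47743 and 47087 on rhLH, level on 3 arrays. PSMB8, an immunoproteasome subunit, had 673 and 1686 on PBS and 2788 and 1757 on rhLH, and 3 of 12 antigen presentation genes had both rhLH arrays above both PBS arrays, where 16.3% of all genes did.

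Markers of leukocytes, which also express many of these genes, gave an uneven picture. In tissue RNA, fewer cells of a type and less RNA per cell cannot be told apart. PTPRC, the pan-leukocyte antigen CD45, had 628 and 356 on PBS and 733 and 234 on rhLH, so it too was highest on rhLH replicate 3. Of 10 macrophage and monocyte markers 6 were measured. Of these, 4 (CD14, CD68, CSF1R and AIF1) were highest on rhLH replicate 3, where 22.8% of all genes were. The summed signals of the 6 were 8875 and 32564 on PBS and 18883 and 15839 on rhLH, mostly from LYZ on every array. CD68, a lysosomal marker of macrophages, had 815 and 1493 on PBS and 2609 and 1318 on rhLH, whereas the lysozyme gene LYZ had 6121 and 28435 on PBS and 13206 and 12488 on rhLH. Of 10 T and natural killer cell markers 3 were measured, with summed signals of 5048 and 25800 on PBS and 23951 and 18143 on rhLH, the defining CD3 genes not being matched. These sums came mostly from GNLY and GZMB, which did not follow each other. GNLY had 476 and 14790 on PBS and 8054 and 2041 on rhLH. GZMB had 4481 and 10891 on PBS and 15764 and 16051 on rhLH. Of the plasmacytoid dendritic cell markers, TLR7 alone was measured, at 4447 and 4925 on PBS and 6375 and 5232 on rhLH. For neutrophils the sums over 3 of 5 markers were 383 and 705 on PBS and 611 and 567 on rhLH, and for B cells over 2 of 4 they were 140 and 559 against 484 and 448. Whether leukocyte content had a part in the level of interferon-stimulated genes on rhLH replicate 3 was not tested.

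Markers of the luteal, vascular and stromal cells were not highest on rhLH replicate 3. Over all genes 22.8% were highest there, and each list is too short to be set apart from that share. Of the 6 measured granulosa-lutein markers, 0 were highest there, and their median difference between rhLH replicates 3 and 4 was −0.26. CYP19A1, the aromatase gene, had 1884 and 7431 on PBS and 12670 and 20847 on rhLH, with the opposite order of the rhLH arrays to that of IFIT1. All 6 endothelial markers were measured, 0 were highest on rhLH replicate 3, and their median difference between the rhLH arrays was −0.21. Of the pericyte and fibroblast markers 2 of 5 were measured, with summed signals of 18139 and 41073 on PBS and 34881 and 35871 on rhLH, and of the red cell markers 2 of 4, with 1123 and 899 against 996 and 1235.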

How the data were processed

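The data were 4 single-colour arrays, 2 per group, with groups taken from the sample titles. Per the labels, the authors made the deposited intensities, 1 linear signal per probe set, with Affymetrix Microarray Suite 5.0 (MAS5). Its scaling target, detection calls and any filter were not given in the sources used here. Each array had a 2% trimmed mean of 500.0, so no further normalization was applied. Of 52865 probe sets, 99 controls were set aside and 31659 of the other 52766 were kept. Gene symbols came from the platform annotation: 24956 probe sets had 1 symbol, 361 several and 27449 none. The 55 genes had 111 probe sets, 96 of them kept.

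Signals were tested as log2(signal + 16) with limma 3.58.1 in R 4.3.3 (lmFit, eBayes with trend, two-sided, Benjamini-Hochberg over all kept probe sets, adjusted p of 0.05), after a test on simulated data. Fold differences are on the signal + 16 scale and SDs are of signals over 2 arrays. The number of arrays limits the precision of every value. The comparison between single arrays has no test. Members and gene lists were chosen with earlier results of these data known. Genes were named where the adjusted p was under 0.05, where all rhLH arrays lay 1.5-fold from all PBS arrays, as the brightest of a role group, or from a panel of 14 genes. The other members and IRF5 and SP110 were named after their values were seen, as were RIGI and all genes of the wider lists. Of the panel, DDX58, IFI6, IFITM3, EIF2AK2 and USP18 had no probe set with that 1 symbol and were not analysed here, and 1 further item is not reported here. No sequences or coordinates were used. Alternatives covered the scaling, pseudocount, filter, variance prior, array weights, choice of probe set and each array left out.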

Additional observations from a re-analysis of the deposited data

How the results depend on the processing

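No paired analysis was possible because the groups share no replicate numbers. The arrays left out decided most values between the groups. The count of probe sets called ranged from 0 to 8169, and that of interferon-stimulated genes called from 0 to 6, both highest without PBS replicate 2. Without PBS replicate 2, the sole control was PBS replicate 1, the array that stood apart from the others. In that fit a smaller share of the 48 genes was called than of all probe sets. The count therefore does not set these genes apart. The median log2 difference of the 48 genes ranged from −0.12 (without rhLH replicate 3) to 0.87 (without rhLH replicate 4). Genes with rhLH above PBS without overlap numbered 8 (without rhLH replicate 3) to 40 (without rhLH replicate 4), and those below 0 to 15 (without rhLH replicate 3). The shares of all genes at these extremes were 25.4% and 29.4% above, and 34.1% (without PBS replicate 1) and 26.4% below. The differences of 19 named genes took both signs with an array left out: IFI16 −0.36 to 0.32, IFI27 −0.050 to 1.42, IFIT2 −0.82 to 0.27, IRF1 −0.13 to 0.39, OAS1 −0.79 to 0.087, TRIM25 −0.087 to 2.16, CMPK2 −1.0 to 2.07, GBP1 −0.42 to 1.19, HERC6 −0.63 to 2.99, IFI44 −0.47 to 3.50, IFIH1 −0.18 to 2.17, IFIT3 −0.11 to 1.97, IRF7 −0.22 to 1.55, MX1 −0.18 to 3.96, MX2 −0.086 to 1.68, OAS3 −0.42 to 1.93, PARP12 −0.43 to 1.17, PARP14 −0.42 to 0.86 and SP100 −0.18 to 0.71.

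Under the other settings no gene of the 48 that the text names gained or lost a call. Of 32 named differences, 10 moved by over 1.5 times with the same sign under centring, 5 under quantile normalization and 7 as the mean over probe sets, and 0 with another pseudocount or filter. GBP1 went from 0.39 to 1.10 and TRIM25 from 1.03 to 0.55 as the mean over probe sets, and under quantile normalization IFI27 went from 0.69 to 0.36 and STAT2 from 0.11 to 0.32. The median of the 48 was 0.63 under centring and 0.63 with the 70th percentile filter, and 10 genes then lay higher without overlap under centring (25.8% of all genes). IFI16 turned to 0.20 with arrays centred on their medians and to 0.046 as the mean over its kept probe sets. IFIT2 turned to 0.12 in the latter, and 1 gene of the 48 then lay lower without overlap. In the main setting the count was 0, against 16.1% of all genes. The cause was not tested. Centring moved the median of all genes to 0.25, and the 48 lay 0.39 above it, as without centring. The count at least 2-fold highest on rhLH replicate 3 was 16 to 20 under the alternatives run, which were chosen for it after its values were seen. Leaving out 1 of the other arrays could only keep or raise this count, so those settings are no check of it. It was 16 under quantile normalization (0.636% of all genes) and 18 under centring (0.746%). With the filter set on the other 3 arrays it was 16. The number of arrays limits every value.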

Other observations

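Of the 11 genes at least 4-fold highest on rhLH replicate 3, 4 lay outside the interferon-stimulated families: RIGI, which the report gives, CCL26, CCL18 and CHGB. CCL26, a chemokine for eosinophils, had 238 and 222 on PBS and 9526 and 623 on rhLH, 14.9-fold above the next array. CCL18, a chemokine gene of macrophages and dendritic cells, had 479 and 1813 on PBS and 10315 and 614 on rhLH. CHGB, a protein of secretory granules, had 103 and 95.2 on PBS and 991 and 213 on rhLH. These genes were picked for this pattern, which has 1 array on its high side and no replicate check.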
